A study of Rattus norvegicus with 6 samples.

Results

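The tubulins described here are 10 genes, the alpha tubulins Tuba1a, Tuba1b and Tuba1c, the beta tubulins Tubb2a, Tubb2b, Tubb3, Tubb4b, Tubb5 and Tubb6, and the gamma tubulin Tubg1, of 17954 genes in the count tables. They were selected by gene symbol, with earlier values of the same libraries known, so that the difference between the groups in these 10 genes is given as a description without a test of its own. The libraries are 3 condylar organoids, small cartilage tissues grown in chondrogenic medium, and 3 flat cultures (2D culture) of chondrocytes from the mandibular condyle, the head of the lower jaw, grown in DMEM with 20% fetal bovine serum. All come from rat, and culture format, medium and serum differed together, so their parts cannot be told apart. The labels give no strain, age or number of animals and do not say if replicates were separate cultures, so p-values measure only the spread between these libraries, which may be technical.

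Alpha and beta tubulin join into dimers, and the dimers polymerise into microtubules, the hollow fibres that carry cargo through the cell, form the mitotic spindle and build the core of the primary cilium. Gamma tubulin sits in a ring complex from which new microtubules grow. In chondrocytes, microtubules carry matrix proteins towards the cell surface, and the cell holds its tubulin level in check by degrading tubulin mRNA while it is being translated when free dimers are in excess. Several genes encode near-identical alpha or beta chains, called isotypes.

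Libraries held 25656808, 18592574 and 24106567 estimated counts in organoids 1, 2 and 3, and 26472447, 25856486 and 26248798 in 2D cultures 1, 2 and 3. Levels are CPM, counts scaled to library size with TMM factors, a scale that is not corrected for transcript length, so levels are compared between groups within a gene and not between genes. In organoids the 8 chondrocyte markers together reached 10490 to 93523 CPM, against 1478 to 1580 CPM in 2D cultures. Of these markers, Col2a1, the main cartilage collagen, had 78321, 6414 and 21945 CPM in organoids 1, 2 and 3, against 2.91, 4.22 and 4.89 CPM in 2D cultures 1, 2 and 3, so this defining marker was nearly absent from the flat cells labelled chondrocyte. The marker level of 2D cultures was almost all Acan, the cartilage proteoglycan, at 1413 to 1513 CPM. In bulk libraries such as these, fewer cells of a type and less RNA per cell cannot be told apart.

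Upstream sequence was read for all 10 genes from RefSeq (build GRCr8), as the 250 bases before the annotated gene start, because the 10 genes were all lower in organoids. The files' own genome build is not given in the sources used here, and the sequences were used only for a description of letters. The 5 printed here belong to the alpha tubulin furthest below 2D culture (Tuba1b, chr7:131972588-131972837 (minus strand)), the gene with most copies of the CCAAT box (Tubb4b, chr3:28438456-28438705 (minus strand)), the gene whose organoids lay closest together (Tubb6, chr18:63213037-63213286 (plus strand)) and the pair with the smallest differences (Tubb2a, chr17:31001936-31002185 (plus strand), and Tubg1, chr10:86552893-86553142 (plus strand)). Capitals mark CCAAT or its reverse ATTGG, and TATAAA or its reverse TTTATA.
Tuba1b: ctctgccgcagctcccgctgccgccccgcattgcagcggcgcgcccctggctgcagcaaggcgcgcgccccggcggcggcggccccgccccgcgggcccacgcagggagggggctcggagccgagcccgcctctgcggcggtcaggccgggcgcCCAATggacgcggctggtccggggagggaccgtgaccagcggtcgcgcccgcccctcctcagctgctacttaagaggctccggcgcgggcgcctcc
Tubb4b: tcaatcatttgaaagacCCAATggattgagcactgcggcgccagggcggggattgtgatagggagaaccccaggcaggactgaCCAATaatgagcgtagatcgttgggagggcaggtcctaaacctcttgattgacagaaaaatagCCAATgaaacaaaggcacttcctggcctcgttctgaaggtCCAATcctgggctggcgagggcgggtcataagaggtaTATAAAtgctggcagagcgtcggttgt
Tubb6: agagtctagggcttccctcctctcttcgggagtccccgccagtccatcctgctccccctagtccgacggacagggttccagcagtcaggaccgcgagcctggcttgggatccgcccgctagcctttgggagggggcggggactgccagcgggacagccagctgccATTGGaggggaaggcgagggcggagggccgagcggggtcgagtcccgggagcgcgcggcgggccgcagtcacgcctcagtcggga
Tubb2a: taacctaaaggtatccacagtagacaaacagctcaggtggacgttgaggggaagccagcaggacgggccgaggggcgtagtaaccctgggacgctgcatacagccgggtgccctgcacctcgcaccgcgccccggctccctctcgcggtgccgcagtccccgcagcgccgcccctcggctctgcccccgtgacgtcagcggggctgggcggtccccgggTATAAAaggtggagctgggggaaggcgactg
Tubg1: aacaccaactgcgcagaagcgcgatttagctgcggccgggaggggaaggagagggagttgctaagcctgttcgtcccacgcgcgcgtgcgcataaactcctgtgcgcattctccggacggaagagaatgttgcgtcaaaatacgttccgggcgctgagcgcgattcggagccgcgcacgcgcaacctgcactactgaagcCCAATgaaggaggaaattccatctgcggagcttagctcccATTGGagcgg

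The CCAAT box, which the factor NF-Y can bind, was found on either strand in 9 of the 10 tubulin promoters, against 34.3% of 27457 RefSeq promoters of the same length. Tubb4b held 4 copies, Tuba1c and Tubg1 held 2 each, and the other 6 held 1, while Tubb2a held 0 and carried a TATAAA motif. That motif, or its reverse TTTATA, was present in 2 of the 10 tubulin promoters (Tubb2a and Tubb4b), against 13.1% of all promoters. The letters GGGCGG or CCGCCC, the GC box, were found in 8 of 10 against 32.4%, TTTGAA or TTCAAA in 2 of 10 against 16%, and CACGTG in 1 of 10 against 5.79%. The comparison promoters were not limited to genes tested here and not matched for expression level. These are matches of letters, not measured binding.

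All 10 tubulins were lower in each of the 3 organoids than in any 2D culture. Summed over the 10 genes, tubulin transcripts stood at 2377, 1576 and 2998 CPM in organoids 1, 2 and 3, against 7788, 7892 and 7881 CPM in 2D cultures 1, 2 and 3. As a share of all deposited counts, without TMM factors, the 10 genes took 0.141% to 0.263% in organoids, against 0.960% to 0.998% in 2D cultures, and the mean share was 5.22-fold lower in organoids. After TMM scaling the means were 2317 ± 713 CPM in organoids and 7854 ± 57.3 CPM in 2D cultures (SD, n = 3 each), 3.39-fold lower in organoids.

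**Figure D1:**
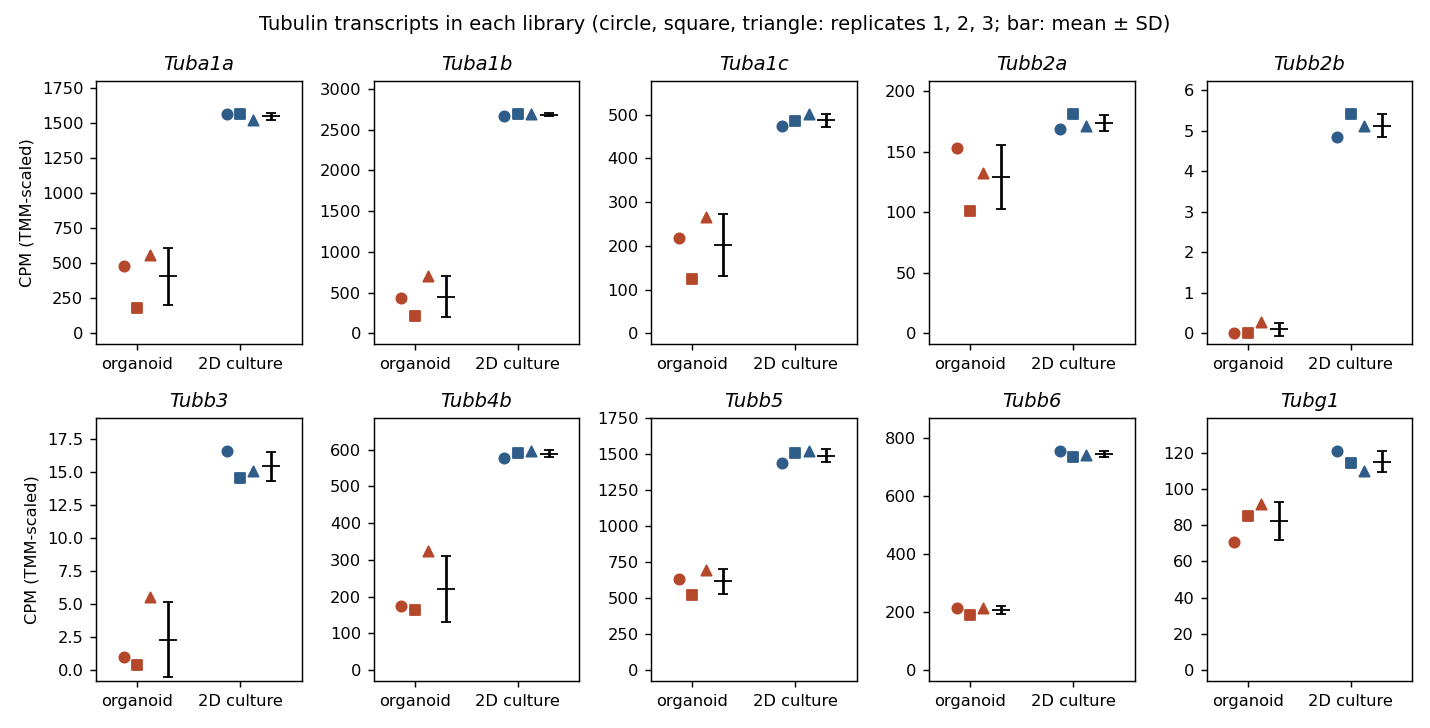
CPM after TMM scaling of the 10 tubulins in each library, organoids left and 2D cultures right in each panel, with circles, squares and triangles for replicates 1, 2 and 3 and bars for mean ± SD (n = 3). In every panel the highest organoid lies below the lowest 2D culture, with the narrowest gap in Tubb2a (153 against 169 CPM) and in Tubg1 (91.4 against 109.8 CPM).

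In edgeR's quasi-likelihood fit over all 13052 tested genes, 7 of the 10 tubulins had an adjusted p under 0.05 and were lower in organoids, 0 were higher and 3 (Tubb2a, Tubb3 and Tubg1) did not pass. Of all tested genes, 12.6% were called lower, 14.9% higher and 27.5% in either direction. No overlap between the groups was seen for all 10 tubulins, against 53.5% of tested genes in either direction and 30.2% with the organoids lower. Higher calls made up 54.1% of all calls with TMM scaling and 23.1% with total library size, and with total library size all 10 tubulins were called lower. The median log2 fold change (organoid over 2D culture) was -1.63 over the 10 tubulins and -0.033 over all tested genes. Because the genes were picked with these values known, nothing is read from the count. Without 2D culture 1, 2 or 3, only Tuba1b and Tubb6 passed in each of these fits, while 6, 7 and 8 passed without organoid 1, 2 and 3.

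Among the alpha tubulins, Tuba1b, a widely expressed alpha tubulin, had 431, 210.3 and 706 CPM in organoids 1, 2 and 3, against 2664, 2692 and 2695 CPM in 2D cultures 1, 2 and 3. Organoid 2 was the lowest and organoid 3 the highest, and even organoid 3 lay far below every 2D culture. The fitted log2 fold change was -2.58 ± 0.45 (SE), 5.97-fold lower in organoids.

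Tuba1a, the alpha tubulin best known from developing neurons, had 482, 178 and 560.0 CPM in organoids 1, 2 and 3, against 1564, 1566 and 1521 CPM in 2D cultures 1, 2 and 3. Its log2 fold change was -1.93 ± 0.43, or 3.81-fold lower. Again organoid 2 stood lowest, and the organoids spanned a 3.15-fold range, against 1.03-fold among 2D cultures. Tuba1c, a further widely expressed alpha isotype, had 217, 125 and 265 CPM in organoids 1, 2 and 3, against 474, 485 and 502 CPM in 2D cultures 1, 2 and 3. It was the least reduced of the 3 alpha genes, with a log2 fold change of -1.27 ± 0.30 (2.41-fold lower).

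Among the beta tubulins, Tubb6, a beta isotype of many non-neural tissues, had 215, 189 and 215 CPM in organoids 1, 2 and 3, against 757, 736 and 740.3 CPM in 2D cultures 1, 2 and 3. The 3 organoids agreed more closely than in any other tubulin (SD of log2 CPM 0.11), and its counts were whole numbers in all 6 libraries. The log2 fold change was -1.85 ± 0.20, or 3.60-fold lower in organoids.

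Tubb5, the broadly expressed class I beta tubulin, had 631, 522 and 697 CPM in organoids 1, 2 and 3, against 1439, 1507 and 1525 CPM in 2D cultures 1, 2 and 3, with a log2 fold change of -1.27 ± 0.22 (2.42-fold lower). Tubb4b, a beta tubulin also found in cilia, had 175, 164 and 324 CPM in organoids 1, 2 and 3, against 578, 591 and 597 CPM in 2D cultures 1, 2 and 3. In Tubb4b, organoids 1 and 2 lay close together and organoid 3 was the highest, still below every 2D culture. Its log2 fold change was -1.41 ± 0.31 (2.66-fold lower).

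Tubb2a, a class II beta tubulin, was the least reduced of the 10. It had 153, 101 and 133 CPM in organoids 1, 2 and 3, against 169, 181 and 171 CPM in 2D cultures 1, 2 and 3. The groups did not overlap, but the log2 fold change of -0.43 ± 0.22 (1.35-fold lower) was small beside the spread of the organoids, whose highest and lowest differed 1.52-fold.

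The neighbouring class II gene Tubb2b was at the opposite end. It had estimated counts of 0, 0 and 6.35 in organoids 1, 2 and 3, against 158.5, 177.27 and 165.35 in 2D cultures 1, 2 and 3, that is 0, 0 and 0.284 CPM against 4.84, 5.41 and 5.11 CPM. Pooled over each group it was 44.2-fold lower in organoids. In the organoids with 0 counts, 3 counts in a single library would correspond to 0.177 and 0.180 CPM. For organoids 1 and 2 alone, leaving out the organoid with reads, a limit of 3 pooled counts put the gene at least 57.5-fold lower. Its fitted log2 fold change of -5.60 ± 1.38 depends on how 0 counts are treated, and moved to -10.07 without organoid 3.

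Tubb3, the class III beta tubulin used as a marker of neurons, was low in both groups and varied most between organoids in relative terms among the 9 of the 10 tubulins detected in all libraries. It had 1.002, 0.361 and 5.54 CPM in organoids 1, 2 and 3, against 16.6, 14.6 and 15.1 CPM in 2D cultures 1, 2 and 3. Organoid 3 stood 15.4-fold above organoid 2 and still below the lowest 2D culture. The log2 fold change was -2.74 ± 0.95. The 9 other neuron markers listed were low in both groups: together they came to 0 to 1.47 CPM in organoids and 1.67 to 2.39 CPM in 2D cultures, and 7 of the 9 had 0 counts in all organoids. Genes listed as microtubule-binding are not in this sum. Of these, Map2 had 6.83, 8.23 and 12.8 CPM in organoids 1, 2 and 3, against 0.521, 0.917 and 1.18 CPM in 2D cultures 1, 2 and 3. Mapt had 8.25, 21.6 and 0 CPM, against 0.490, 0.214 and 0.279 CPM, whereas Map6 and Stmn2 were lower in organoids.

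Tubg1, the gamma tubulin that nucleates microtubules, had 70.6, 85.0 and 91.4 CPM in organoids 1, 2 and 3, against 121, 114 and 109.8 CPM in 2D cultures 1, 2 and 3. The organoids lay just below the 2D cultures, with organoid 1 the lowest, unlike the alpha genes. Its log2 fold change was -0.48 ± 0.19 (1.40-fold lower).

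**Figure D2:**
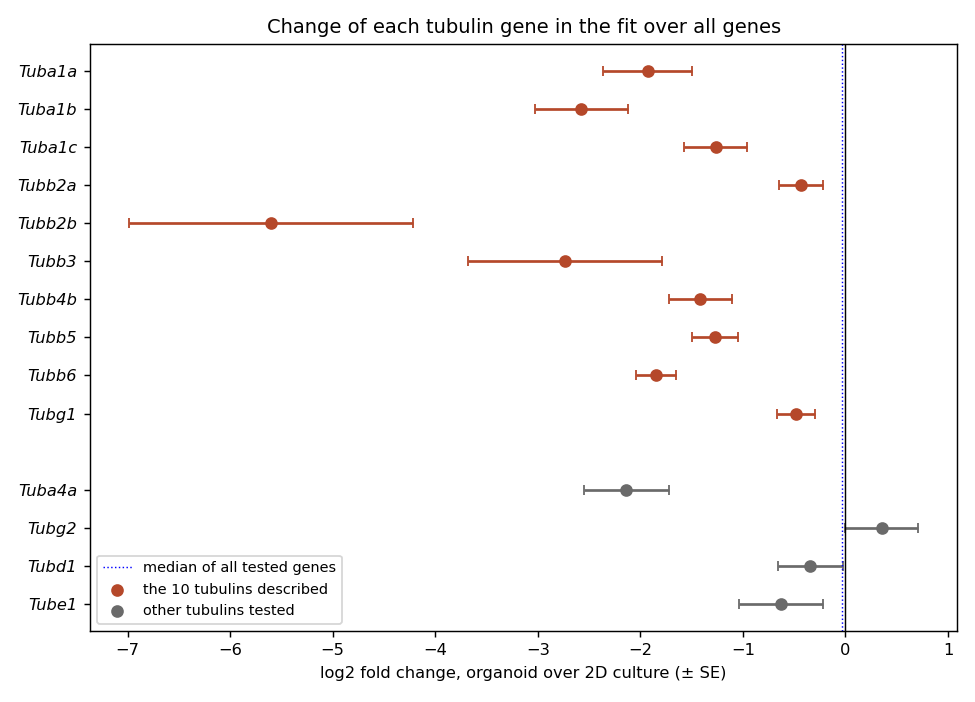
Fitted log2 fold change, organoid over 2D culture, with its SE as bars, for the 10 tubulins (brown) and the 4 other tubulins that passed the low-count filter (grey). The 10 tubulins run from -5.60 (Tubb2b) to -0.43 (Tubb2a), all left of the dotted median of all tested genes at -0.033.

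The 10 tubulins also differed in how far the organoids lay apart. Organoid 3 was the highest organoid for 9 of the 10 genes (organoid 1 for Tubb2a), and organoid 2 was the lowest alone for 8 of the 10. The exceptions were Tubg1, with organoid 1 the lowest, and Tubb2b, with organoids 1 and 2 both at 0. The median SD of log2 CPM over the 10 genes was 0.55 in organoids and 0.043 in 2D cultures. Over the 8818 tested genes with a mean of at least 10 CPM it was 0.57 in organoids and 0.11 in 2D cultures.

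**Figure D3:**
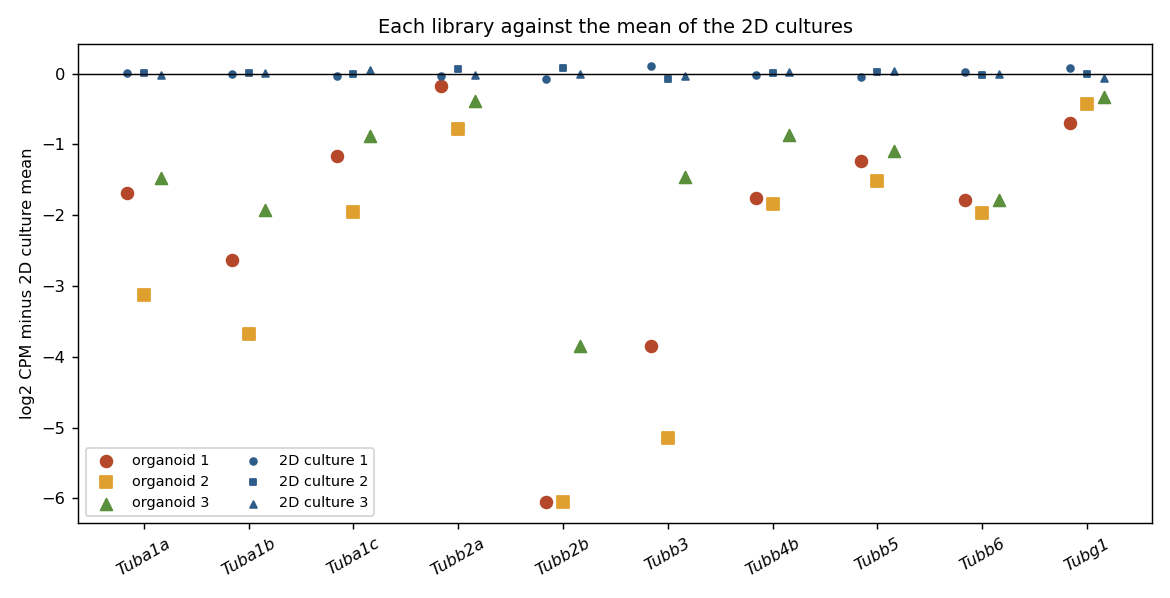
Log2 CPM of each tubulin in each library minus the mean of the 3 2D cultures, with large symbols for organoids and small symbols for 2D cultures (circles, squares and triangles for replicates 1, 2 and 3). Organoid 2 lies lowest for Tuba1a (-3.12) and Tuba1b (-3.67), while all 3 organoids lie close together for Tubb6 (-1.97 to -1.79).

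Measured as the root mean square difference of log2 CPM, each gene centred on its 2D culture mean, over the 6 libraries, Tuba1c and Tubb5 were the closest pair of tubulins (0.21), followed by Tubb4b and Tuba1c (0.24) and by Tubb2a and Tubg1 (0.26). Tubb2b was far from all others, with Tubb3 as its nearest at 1.38. Among 8810 other genes of at least 10 CPM, the patterns nearest to the summed tubulins were those of Traf3ip2 (0.056), a signalling adaptor of the IL-17 receptor, Tyms (0.064), the thymidylate synthase of DNA synthesis, Pgam5 (0.076), a mitochondrial phosphatase, Cdkn2b (0.079), an inhibitor of cell cycle kinases, and Clic1 (0.11), an intracellular chloride channel protein. Traf3ip2 had 7.95, 5.47 and 11.2 CPM in organoids 1, 2 and 3, against 27.8, 26.5 and 28.2 CPM in 2D cultures 1, 2 and 3. Tyms had 15.7, 10.8 and 22.4 CPM in organoids 1, 2 and 3, against 52.6, 52.5 and 55.9 CPM in 2D cultures 1, 2 and 3. Each of these nearest genes had the same order of organoids as the summed tubulins, which follows from how they were searched for and is not a separate result.

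Because several tubulin genes are near-identical in sequence, the counts of such isotypes depend on how shared reads were divided. A fractional count, which arises where a read is divided among genes, was present in at least 1 library for 9 of the 10 genes and in all 6 libraries for 6 of them (Tuba1a, Tuba1b, Tuba1c, Tubb2a, Tubb4b and Tubg1). Tubb6 had none. The 3 alpha genes were each fractional in every library, yet their sum was a whole number in all 6 libraries to within 0.01, for example 19191 in organoid 1, against 153422.01 in 2D culture 1. Likewise Tubg1 and its neighbour Tubg2 summed to whole numbers in all 6 libraries, for example 1371 in organoid 1 and 4279 in 2D culture 1.

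The 6 beta genes did not sum to whole numbers (largest distance 0.49). Among 2314 other genes with fractional values in at least 3 libraries, 0 single genes and 1 pair brought the beta sum to within 0.04 of a whole number in all 6 libraries. The pair was LOC100364958, which RefSeq calls Tubb2al1 and places between Tubb2b and Tubb2a, and Fam166a, which RefSeq calls Cimip2a and places next to Tubb4b. How many pairs would pass by chance was not tested. The pair was found by this search over all pairs of these genes, after the values were seen, and is not shown to share reads with the beta genes. It held few reads, with 0 to 6.13 counts for LOC100364958 and 5.52 to 13.05 for Fam166a in organoids, against 1.04 to 8.33 and 24.53 to 34.65 in 2D cultures. The alpha sum does not depend on how reads were divided among its 3 genes, whereas the value of each single alpha isotype does, by an amount that was not tested. RefSeq also lists 30 tubulin pseudogenes, of which 14 are named after Tuba1b and 5 after Tuba1a, and their part in these counts was not tested.

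Summed, the 3 alpha genes together had 1131, 513 and 1532 CPM in organoids 1, 2 and 3, against 4702, 4742 and 4718 CPM in 2D cultures 1, 2 and 3. The log2 fold change of the sum was -2.16 in the fit in which it replaced the single genes. The 6 beta genes together had 1175, 977 and 1375 CPM in organoids 1, 2 and 3, against 2964, 3035 and 3054 CPM in 2D cultures 1, 2 and 3, with a log2 fold change of -1.36. The alpha sum thus lay further below 2D culture than the beta sum, by 4.46-fold against 2.57-fold for the group means. This order held for the sums and not for every gene. Tuba1c (log2 fold change -1.27) was less reduced than Tubb6 (-1.85), whereas Tuba1b (-2.58) was more reduced than Tubb6. The alpha part of all alpha and beta counts was 49.0%, 34.4% and 52.7% in organoids 1, 2 and 3. In 2D cultures 1, 2 and 3 it was 61.3%, 61.0% and 60.7%. These are shares of counts, not of molecules.

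The mix of isotypes differed as well. Tuba1b took 41.8% ± 4.05 of the alpha counts in organoids and 56.9% ± 0.241 in 2D cultures (SD, n = 3 each). Tuba1c took 20.3% ± 3.65 in organoids and 10.3% ± 0.289 in 2D cultures, and Tuba1a 38.0% ± 4.18 and 32.8% ± 0.530. The groups did not overlap in any of these shares, and the division of shared reads bears on all of them.

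Within the beta counts, Tubb6 took 17.8% ± 1.92 in organoids and 24.7% ± 0.741 in 2D cultures, and Tubb2a took 11% ± 1.79 in organoids and 5.75% ± 0.190 in 2D cultures. Tubb5 held the largest part of the beta counts in both groups, 52.6% ± 1.67 in organoids and 49.4% ± 0.743 in 2D cultures. The share of Tubb4b was 14.9%, 16.8% and 23.6% in organoids 1, 2 and 3, on both sides of the 19.5% to 19.6% in 2D cultures, so that it was the only beta gene whose share overlapped between the groups.

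**Figure D4:**
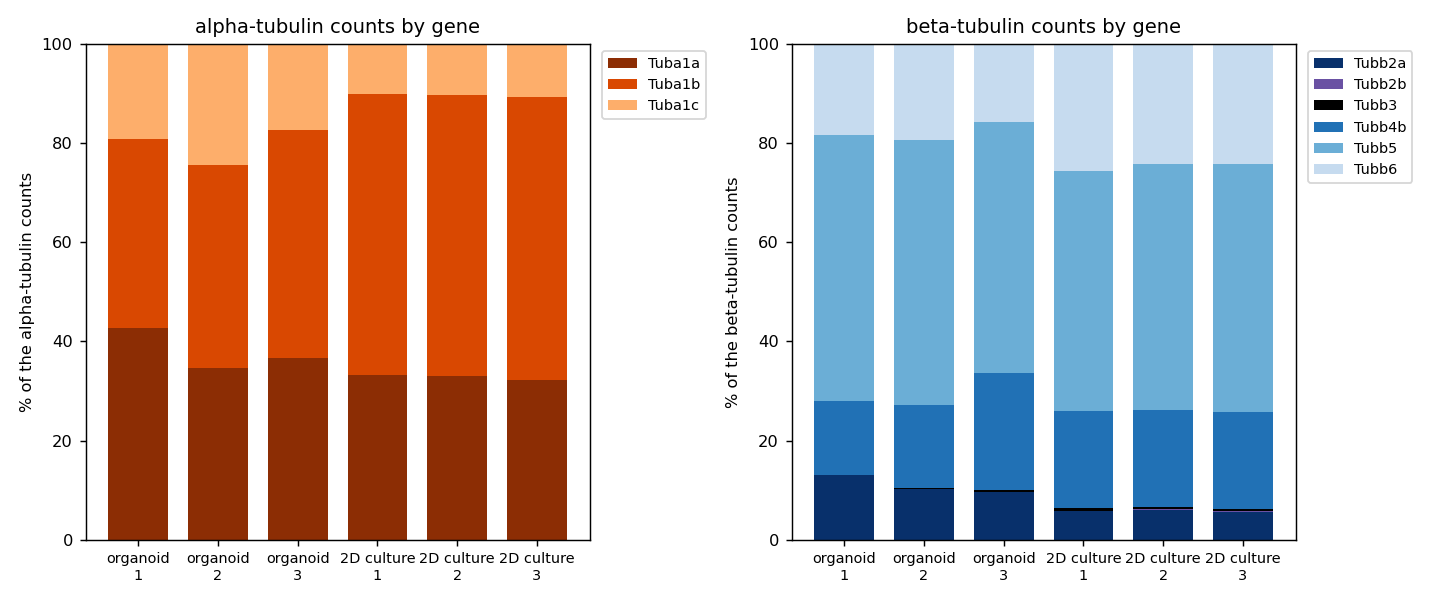
Share of each gene in the alpha-tubulin counts (left) and in the beta-tubulin counts (right), in percent, for organoids 1 to 3 and 2D cultures 1 to 3. Tuba1b fills 38.1% to 46.1% of the alpha counts in organoids and 56.7% to 57.1% in 2D cultures; Tubb2b and Tubb3 hold under 1% of the beta counts and are barely visible.

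Tubulin genes outside the 10 were tested in the same fit. Of 9 such genes in the files, 4 passed the low-count filter. Of these 4, 1 fell (25%, against 12.6% of all tested genes), 0 rose (against 14.9%) and 3 did not pass (0 higher also at an unadjusted p under 0.05, in DESeq2 and in limma-voom). With 4 genes, nothing is read from these counts. Tuba4a, an alpha tubulin of muscle, platelets and brain, had 4.12, 4.69 and 10.03 CPM in organoids 1, 2 and 3, against 28.2, 27.8 and 27.1 CPM in 2D cultures 1, 2 and 3. It fell by 2.14 on the log2 scale (SE 0.41, edgeR adjusted p = 0.0121, lower in 3 of 3 organoids), and lost its call without 2D culture 1, 2 or 3 (edgeR adjusted p = 0.0637, 0.0599 and 0.0605). Over the 13 alternative fits its adjusted p ran from 2.18e-05 to 0.0637.

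Tubg2, the second gamma tubulin, had 10.1, 10.9 and 17.4 CPM in organoids 1, 2 and 3, against 10.02, 10.5 and 9.56 CPM in 2D cultures 1, 2 and 3 (log2 fold change 0.35 ± 0.35, edgeR adjusted p = 0.495), and shares its reads with Tubg1. Delta tubulin Tubd1 (-0.34 ± 0.32) and epsilon tubulin Tube1 (-0.62 ± 0.41), both known from centrioles, did not pass either (edgeR adjusted p = 0.464 and 0.300). Tubd1 did pass with total library size (edgeR adjusted p = 0.0363; range over the alternatives 0.0363 to 0.684). Tuba3a, Tuba3b, Tuba8, Tubb1 and Tubb4a, known from testis, muscle, platelets and brain, were at 0.217 CPM or less in every library and were not tested.

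The list of genes that fold tubulin holds prefoldin, which hands new chains to the chaperonin, the chaperonin TRiC/CCT, which folds actin and tubulin, and the cofactors that assemble the dimer. Of 19 tested, 9 fell (47.4%, against 12.6% of all tested genes), 0 rose (against 14.9%) and 10 did not pass in edgeR (0 higher also at an unadjusted p under 0.05, in DESeq2 and in limma-voom), with a median log2 fold change of -0.73, against -0.033 over all tested genes. All 8 chaperonin subunits were among the 9, whereas 0 of 5 prefoldin genes and 1 of 6 cofactor genes were, a split made after the values were seen. Cct3 fell to 109, 73.2 and 103 CPM in organoids 1, 2 and 3, against 355, 347 and 357 CPM in 2D cultures 1, 2 and 3 (log2 fold change -1.89 ± 0.23, edgeR adjusted p = 0.00226). Tcp1 fell by 1.74 and Cct4 by 1.47 on the log2 scale (edgeR adjusted p = 0.0137 and 0.0105), and the cofactor Tbcb by 0.96 (edgeR adjusted p = 0.0124). Without 2D culture 1, 2 and 3 the count was 1, 4 and 1, and without organoid 2 it was 14.

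A further list holds Ttc5 and Scaper, of the pathway that degrades tubulin mRNA, and genes of the general CCR4-NOT deadenylase. Ttc5, which recognises the first residues of new tubulin chains, had 29.0, 20.1 and 31.5 CPM in organoids 1, 2 and 3, against 26.8, 24.5 and 25.3 CPM in 2D cultures 1, 2 and 3, and did not pass (log2 fold change 0.07 ± 0.25, edgeR adjusted p = 0.856). Its partner Scaper, which recruits the CCR4-NOT deadenylase, rose to 21.6, 32.8 and 12.9 CPM in organoids 1, 2 and 3, against 8.67, 6.42 and 5.48 CPM in 2D cultures 1, 2 and 3 (log2 fold change 1.71 ± 0.43, edgeR adjusted p = 0.0281). Of the 12 genes tested on this list, 4 rose (33.3%, against 14.9% of all tested genes), 0 fell (against 12.6%) and 8 did not pass in edgeR (0 lower also at an unadjusted p under 0.05, in DESeq2 and in limma-voom). Apart from Scaper, the genes that rose were CCR4-NOT genes. Cnot6, with a log2 fold change of 1.596 ± 0.34, and Cnot6l, with 1.12 ± 0.27, were among them (edgeR adjusted p = 0.0170 and 0.0231). With total library size, where the median of all genes was -0.65, 0 rose and 2 fell and Ttc5 turned to -0.55, and without any of 2D culture 1, 2 and 3, 0 rose.

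Of 17 genes of the gamma-tubulin ring, its anchors and augmin, which nucleate microtubules, 2 fell (11.8%, against 12.6% of all tested genes), 1 rose (5.88%, against 14.9%) and 14 did not pass. Neither share was above that of all tested genes. Haus4, an augmin subunit, fell by 2.06 and Mzt1, a small ring subunit, by 1.48 on the log2 scale (edgeR adjusted p = 0.0134 and 0.0258), while Akap9, a large centrosomal and Golgi anchor, rose by 2.33 ± 0.49 (edgeR adjusted p = 0.0156). Akap9 stood at 189, 500.1 and 147 CPM in organoids 1, 2 and 3, against 59.5, 58.5 and 48.7 CPM in 2D cultures 1, 2 and 3. None of these 3 passed without 2D culture 1, 2 or 3, and without organoid 3 the list had 2 higher calls.

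Of 16 tested tubulin-modifying enzymes, 1 rose (6.25%, against 14.9% of all tested genes), 0 fell (against 12.6%) and 15 did not pass in edgeR (lower: 2 at an unadjusted p under 0.05, 0 in DESeq2 and in limma-voom). Agtpbp1, which trims glutamates from tubulin tails, rose to 60.7, 101 and 53.6 CPM in organoids 1, 2 and 3, against 26.7, 25.95 and 30.02 CPM in 2D cultures 1, 2 and 3 (log2 fold change 1.38 ± 0.29, edgeR adjusted p = 0.0162). With total library size 0 rose and 3 fell. Without organoid 1, 2 and 3 the number that rose was 2, 4 and 4, and without any 2D culture it was 0.

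Of 34 tested genes for proteins that bind microtubules, 4 rose (11.8%, against 14.9% of all tested genes), 8 fell (23.5%, against 12.6%) and 22 did not pass. Map6, which stabilises microtubules, fell to 3.18, 0 and 5.06 CPM in organoids 1, 2 and 3, against 57.7, 52.9 and 56.0 CPM in 2D cultures 1, 2 and 3 (log2 fold change -4.32 ± 1.12, edgeR adjusted p = 0.0310). Stmn2, a stathmin that sequesters tubulin dimers, had 0 counts in all organoids, against 89, 78 and 75 in 2D cultures 1, 2 and 3, and was at least 45.2-fold lower in organoids with 3 counts over the group as the limit (edgeR adjusted p = 0.00950). Map2 rose by 3.41 ± 0.61 and the plus-end protein Mapre3 by 1.61 ± 0.27 on the log2 scale (edgeR adjusted p = 0.00886 and 0.00756). With DESeq2 11 rose and 10 fell, with total library size 1 rose and 14 fell, without organoid 1, 2 and 3, 7, 7 and 9 rose, and without 2D culture 1, 2 or 3, 0 rose and 1 fell.

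Of 21 tested cilium genes 3 rose (14.3%, about the 14.9% of all tested genes) and 0 fell (against 12.6%) in edgeR (lower: 1 at an unadjusted p under 0.05, 1 in DESeq2 and 1 in limma-voom). Arl13b, a small GTPase of the ciliary membrane, rose to 41.4, 49.2 and 35.0 CPM in organoids 1, 2 and 3, against 12.0, 12.8 and 12.2 CPM in 2D cultures 1, 2 and 3 (log2 fold change 1.76 ± 0.24, edgeR adjusted p = 0.00333). The transport proteins Ift140 (log2 fold change 0.79 ± 0.21) and Ift57 (0.87 ± 0.26) were the others (edgeR adjusted p = 0.0314 and 0.0475). Only 1 rose with total library size, where 2 fell, and 1 when 2D culture 1, 2 or 3 was omitted.

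**Figure D5:**
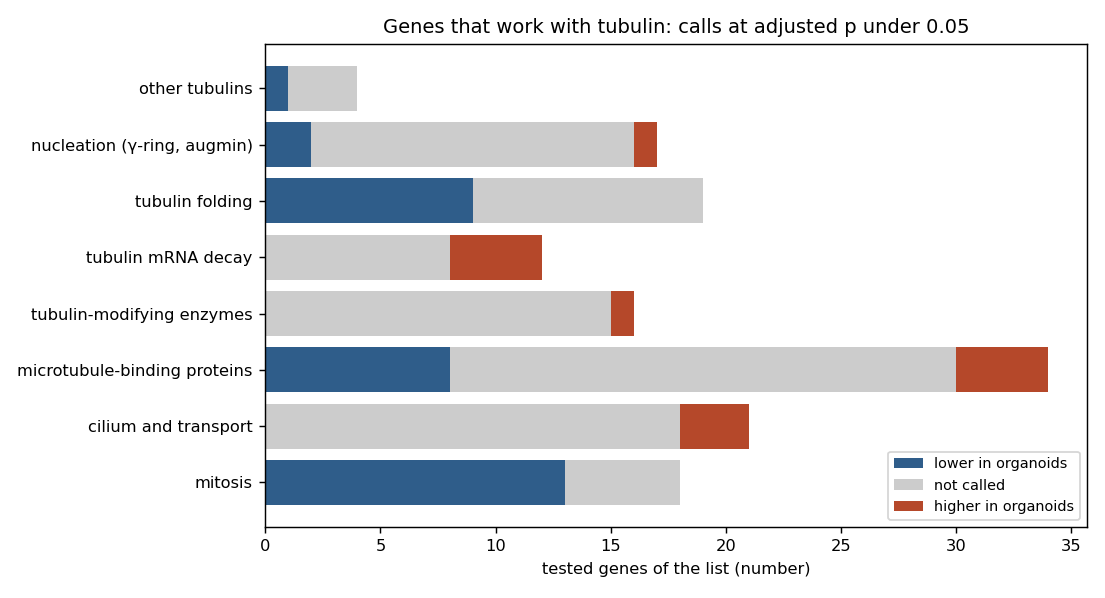
Number of tested genes in each list of tubulin-related genes that were called lower (blue), not called (grey) or called higher (brown) in organoids at an edgeR adjusted p under 0.05. Folding (9 of 19) and mitosis (13 of 18) hold the most lower calls, and the mRNA decay list (Ttc5, Scaper and CCR4-NOT genes) holds 4 higher calls and 0 lower.

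Genes of cell division were lower in the same libraries. Of 18 mitotic genes 13 fell (72.2%, against 12.6% of all tested genes), 0 rose (against 14.9%) and 5 did not pass in edgeR (0 higher also at an unadjusted p under 0.05, in DESeq2 and in limma-voom), and their summed level was 273 to 780.3 CPM in organoids, against 1738 to 1889 CPM in 2D cultures. Ttk, a checkpoint kinase, fell by 3.82, Aurka, a spindle pole kinase, by 2.85 and Kif20a, a motor of cytokinesis, by 2.52 on the log2 scale (edgeR adjusted p = 0.00408, 0.0176 and 0.0345). Organoid 3 was the highest organoid for 16 of the 18 mitotic genes and for 9 of the 10 tubulins, a count that was not made over all tested genes. In the other lists, organoid 3 was highest for 6 of 19 folding, 7 of 12 mRNA decay and 7 of 17 nucleation genes. The same held for 7 of 21 modifying, 16 of 35 microtubule-binding and 9 of 22 cilium genes. For the other tubulins the count was 4 of 9, and for the chondrocyte markers 0 of 8. Organoid 2 was the lowest for 9 of the 18 mitotic genes and for 8 of the 10 tubulins. The mitotic sums were 283, 273 and 780.3 CPM in organoids 1, 2 and 3. The part of dividing cells in the tubulin levels was not tested. With 2D culture 1, 2 or 3 omitted 5 fell, and with organoid 1 omitted 8. Of the other cell types looked for, 4 leukocyte markers reached 33.9, 18.0 and 0.284 CPM in organoids 1, 2 and 3, mostly from Csf1r in organoids 1 and 2, against 0.306 to 0.774 CPM in 2D cultures. The 4 endothelial markers came to 0.0946 to 2.18 CPM in organoids and 0.336 to 0.805 CPM in 2D cultures, the 6 muscle markers to 4.99 to 56.7 CPM in organoids and 3.43 to 6.44 CPM in 2D cultures, and the 5 Schwann cell markers to 72.7 to 174 CPM in organoids and 17.1 to 19.4 CPM in 2D cultures. S100b, which chondrocytes also express, made up most of the Schwann cell sum, and Sox10 had 0 counts in all organoids. Of the muscle markers, Acta1 reached 47.1 CPM in organoid 1, Ttn had 146, 56 and 0 counts and Ckm 16, 4 and 68 counts in organoids 1, 2 and 3, against 0 to 6 counts in 2D cultures for Ttn and 0 to 1 for Ckm, while Myod1 had 0 in all organoids. Myh3 went the other way, with 1.11, 0 and 0 counts in organoids 1, 2 and 3, against 63, 20 and 55.33 in 2D cultures 1, 2 and 3. It was called lower in organoids (edgeR adjusted p = 0.0187). Of the endothelial markers, Cdh5 had 14 counts in organoid 1 and 0 in the other libraries, Pecam1 had 8 counts in organoid 1 and 0 in the other organoids, against at most 1 in a 2D culture, and Tek had 15, 29 and 2 counts in organoids 1, 2 and 3, against 12, 0 and 9 in 2D cultures 1, 2 and 3, while Kdr had 0 in all organoids. The part of such cells in the tubulin levels was not tested.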

How the data were processed

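Transcripts were measured by mRNA sequencing on the DNBSEQ platform in 3 organoid and 3 2D culture libraries, grouped and numbered by sample title. The authors deposited expected counts (estimated counts per gene that need not be whole) for each library, not normalised. Tools named in the submitters' processing notes are RSEM, Bowtie2, HISAT, HISAT2 and DESeq2, with neither version nor role. Build, annotation and strandedness: not given in the sources used here. Between 1846 and 2501 values per library were fractional.

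Counts were rounded and analysed in R 4.3.3 with edgeR 4.0.16 (filterByExpr with minimum count 10, TMM scaling, robust quasi-likelihood F-test, Benjamini-Hochberg adjustment over all tested genes at 0.05), with limma 3.58.1 and DESeq2 1.42.0 as alternatives. Standard errors were obtained by dividing the size of each log2 fold change by the root of its F statistic. The steps were tested on simulated data with known changes. The simulation gave both groups the same spread, unlike these libraries, so it does not cover their unequal spread. Replicates of a group differed by more than sampling noise. Chi-square over degrees of freedom was 9.1 to 18.9 between 2D cultures and 189 to 410 between organoids. The members, gene lists and tests were chosen with earlier results of these data known. Of 208 list entries, 199 matched a gene. The genes named are the 10 tubulins, the other tubulins, Ttc5, Scaper and, per list, up to 3 called genes that changed most among those reaching 1 CPM, and the most changed one, not already among them, of the direction opposite to the first. The genes nearest in pattern, Tbcb, Mapt, the cell type markers named (Col2a1, Acan, Csf1r, S100b, Sox10, Acta1, Ttn, Ckm, Myod1, Myh3, Cdh5, Pecam1, Tek and Kdr), LOC100364958 and Fam166a came from other steps or were chosen after their values were seen. RefSeq (GRCr8) held 17720 of the 17954 gene IDs and gave names, neighbours and upstream sequences. Limits at 0 counts are set at 3 counts and cover counting error only.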

Additional observations from a re-analysis of the deposited data

How the results depend on the processing

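All 10 tubulins kept a negative log2 fold change, and one below the median of all tested genes, in each of the 13 alternative fits. Their median was -2.24 with total library size, which moved the median of all genes to -0.65, and -1.85 to -1.36 when a library was left out. The summed beta genes stood at -1.98 with total library size. Leaving out a library gave 2 to 8 tubulins called lower, and 1109 to 5321 genes called in all, against 3594.

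With total library size, calls lower were 2 other tubulins, 4 nucleation, 2 mRNA decay, 3 modifying, 14 microtubule-binding and 2 cilium genes, and calls higher were 0 mRNA decay, 0 modifying, 1 microtubule-binding and 1 cilium genes; Tubg2 turned to -0.24 and Ttc5 to -0.55. DESeq2 gave 4 modifying and 11 microtubule-binding genes higher and 1 cilium gene lower, DESeq2's size factors in edgeR gave 2 modifying genes higher, no low-count filter 1 cilium gene higher, and limma-voom with group weights 1 cilium gene higher and 1 lower.

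Leaving out a library gave 0 to 1 other tubulins, 0 to 3 nucleation, 1 to 14 folding, 0 to 1 mRNA decay, 0 to 2 modifying, 1 to 11 microtubule-binding, 0 to 1 cilium and 5 to 17 mitotic genes lower, and 0 to 2 nucleation, 0 to 4 mRNA decay, 0 to 4 modifying, 0 to 9 microtubule-binding and 1 to 3 cilium genes higher; Ttc5 ran from -0.065 (without organoid 3) to 0.29. Where not given otherwise, the cause was not tested.

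Deviations from the group mean correlated weakly between same-numbered libraries (0.061, 0.187 and 0.021 for numbers 1, 2 and 3). Between libraries of unlike number the correlations ran from -0.135 to 0.07. With 3 libraries per group these values cannot settle whether the numbers pair the libraries. With a replicate block 2730 genes were called, 8 of them tubulins (Tubb3 added), with 2 mRNA decay genes and 1 cilium gene higher. Tubb2b and Tubb3 are limited by depth, since 3 counts correspond to 0.142 to 0.180 CPM in organoids.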
